A study of Mus musculus with 13 samples.

Results

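The genes of GABA synthesis and vesicular transport, Gad1, Gad2 and Slc32a1, were followed together with Lhx6, a transcription factor of interneurons, in mouse retrosplenial cortex, an area on the midline of the hemisphere. The 4 genes were taken by name, and all 4 had a row among the 32285 genes of the spot table. Of the 15114 genes of the cell table, 2 were members, Gad1 and Gad2, while Slc32a1 and Lhx6 had no row there. Every row of the cell table used here had a count in at least 10 cells.

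The cells were neurons dissected from acute slices of wild-type mice of the B6 strain and pooled over slices, and they formed 1 group of 11 samples from 3 animals. Sections of flash frozen wild-type brains were profiled on Visium slides, where a spot takes up RNA from a small area that can hold several cells. These are called S4 and S8, after the column names, and the labels name no treatment for either assay. The column names give the dissection level of each cell as anterior, medium or posterior.

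Gad1 and Gad2 encode the 2 forms of glutamate decarboxylase, the enzyme that makes GABA from glutamate. Slc32a1 encodes the transporter that loads GABA into synaptic vesicles. Lhx6 acts in interneurons that arise in the medial ganglionic eminence, which include the Pvalb and Sst classes, whereas Vip interneurons arise elsewhere. Excitatory neurons of the cortex carry the vesicular glutamate transporter Slc17a7 in place of Slc32a1. In this cortex GABA is made by interneurons scattered through all layers.

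The cell table held 765 cells with 32 to 80 per sample and sample medians of 54532 to 210874 counts per cell. The sections held 1022 spots with a median of 8267 counts (S4) and 951 spots with a median of 6705 (S8). The sections shared 162 spot barcodes, which come from the fixed barcode set of the slides. Gm42418 took 2.41% of the counts of S4 and 8.45% of those of S8. Of the markers of other cell types, the 4 microglial and the 4 endothelial genes had no row in the cell table, and all 5 astrocyte and all 5 oligodendrocyte genes had one.

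Counts over spots show how widely the GABA genes reach over the tissue. Gad1 had a count in 717 of 1022 spots of S4 (70.2%, exact 95% interval 67.2% to 72.9%) and in 582 of 951 spots of S8 (61.2%, 58.0% to 64.3%). Gad2 had a count in 50.8% of the spots of S4 (47.7% to 53.9%) and 41.3% of those of S8 (38.2% to 44.5%). Slc32a1 reached 31.7% (28.9% to 34.7%) and 27.0% (24.2% to 29.97%) of spots. Lhx6 was sparse, with a count in 7.44% (5.90% to 9.22%) and 5.78% (4.39% to 7.46%). All 4 members were found in a smaller share of spots in S8, the shallower section. Intervals here and below cover counting error only.

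Scaled by the total counts of the section, the sections were closer. Gad1 stood at 198 CPM (the share of all counts of the section or class, scaled as usual) in S4 and 188 CPM in S8, from 1674 and 1203 counts. Gad2 stood at 107 and 91.7 CPM, Slc32a1 at 53.1 and 50.9 CPM, and Lhx6 at 9.48 and 8.92 CPM. All 4 values were lower in S8. With Gm42418 taken out of the totals, this order turned for Gad1 (203 in S4 and 206 CPM in S8), Slc32a1 (54.4 and 55.6 CPM) and Lhx6 (9.72 and 9.74 CPM), while Gad2 stayed lower in S8 (110.04 and 100.2 CPM). With 1 section on each side these differences have no test. CPM are not scaled by gene length, so levels are not compared between genes. Thinned to 5000 counts per spot, with 198 shallower spots left out, Gad1 reached 56.2% of spots in S4 and 53.5% in S8, and Slc32a1 reached 22.0% and 22.1%.

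Counts of the synthesis genes were uneven from spot to spot. Gad1 had a variance over mean of 1.98 (S4) and 1.79 (S8), and its richest spot held 13 and 10 counts. Gad2 had ratios of 1.60 and 1.32, and Slc32a1 had 1.30 and 1.18. For Lhx6 the ratios were 1.02 and 1.01, close to the 1 that counting alone gives, and 72 of its 76 spots in S4 held a single count. The unequal totals of spots are part of these ratios. For a given unevenness the ratio also grows with a gene's mean count, so the genes are not ranked by it. At so few counts a ratio near 1 does not show that Lhx6 was even over spots.

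Most spots held at least 1 member. In S4, 140 spots held none of the 4, 341 held 1, 344 held 2, 181 held 3 and 16 held all 4. In S8 the same counts were 206, 322, 309, 109 and 5. Spots with more members were deeper: the median total rose from 6840 in spots of S4 with none to 9079 in those with all 4. Gad2 was found in 55.4% of the spots with Gad1 and 40.0% of those without it in S4, and in 47.9% and 30.9% in S8. Over spots, the log levels of Gad1 and Gad2 had a Pearson r of 0.24 in S4 (1022 spots) and 0.245 in S8 (951 spots). Those of Gad1 and Slc32a1 had an r of 0.141 in both sections. These are low values in sparse counts, and the spots of a section share its library and differ in depth, so they are given as descriptions.

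To place the genes in the cortical layers, each spot was assigned to the class whose marker genes it carried most, if that score was at least 1 SD above the section's mean. No member or interneuron gene was among the markers. The 8 classes were superficial (markers such as Cux2), layer 4 (Rorb), layer 5 (Fezf2), layer 6 (Foxp2), layer 6b (Nxph4), retrosplenial (Tshz2), oligodendrocyte (Mbp) and surface (Gjb2). They took 711 spots of S4 and 651 of S8, in classes of 68 to 119 spots, and 311 and 300 spots stayed without a class. Slc17a7 stood at 723 and 895 CPM in the oligodendrocyte class, so these spots still held neurons and are not called white matter. Layer 1 had no class of its own.

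Gad1 was found in every class, between 145 and 261 CPM. It stood at 261 CPM in S4 and 253 CPM in S8 in the retrosplenial class and at 240 and 256 CPM in layer 4. Next came the surface class (190 and 223 CPM), the oligodendrocyte class (212 and 193 CPM) and layer 5 (198 and 202 CPM). Layer 6 (181 and 175 CPM), the superficial class (180 and 159 CPM) and layer 6b (183 and 145 CPM) were lowest. In both sections the retrosplenial class and layer 4 lay above the other 6. Of the 7 neighbouring pairs in the order of the means, 2 did not overlap between sections: layer 4 above surface, and layer 5 above layer 6. The mean of the highest class was 1.57 times that of the lowest.

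Gad2 had a different order. It stood at 111 CPM in S4 and 130 CPM in S8 in the surface class and at 121 and 107 CPM in layer 6b. The retrosplenial class had 128 and 89.5 CPM and layer 4 had 123 and 90.6 CPM. Then followed the oligodendrocyte class (96.0 and 92.1 CPM), layer 5 (96.4 and 80.3 CPM), the superficial class (96.7 and 75.98 CPM) and layer 6 (69.6 and 80.5 CPM). The ranges of the 2 sections overlapped in all 7 neighbouring pairs, so no step in this order exceeded the spread between sections. The classes with most Gad2 differed between sections, with the retrosplenial class first in S4 and the surface class first in S8.

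Slc32a1 had 1 class above the rest. Layer 4 stood at 91.8 CPM in S4 and 67.0 CPM in S8, from 67 and 34 counts. Layer 6 (55.95 and 52.3 CPM), the retrosplenial class (50.2 and 53.7 CPM), layer 5 (40.8 and 61.9 CPM), layer 6b (59.2 and 41.7 CPM) and the surface class (46.3 and 52.4 CPM) followed and overlapped. The oligodendrocyte class had 38.1 and 44.2 CPM and the superficial class 46.5 and 30.4 CPM. In S4 a count was present in 51.2% of layer 4 spots against 21.4% to 40.0% in the other classes. In S8 the share was 32.9% in layer 4 and 39.2% in layer 5, so by spots with a count layer 4 was not first there.

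Lhx6 held 0 to 14 counts per class and section. It ran from 9.60 and 17.7 CPM in layer 4 to 9.11 CPM in S8 and 0 counts in S4 in the surface class, where a floor of 3 counts allows up to 6.94 CPM. With so few counts the order of its classes is not read.

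**Figure D1:**
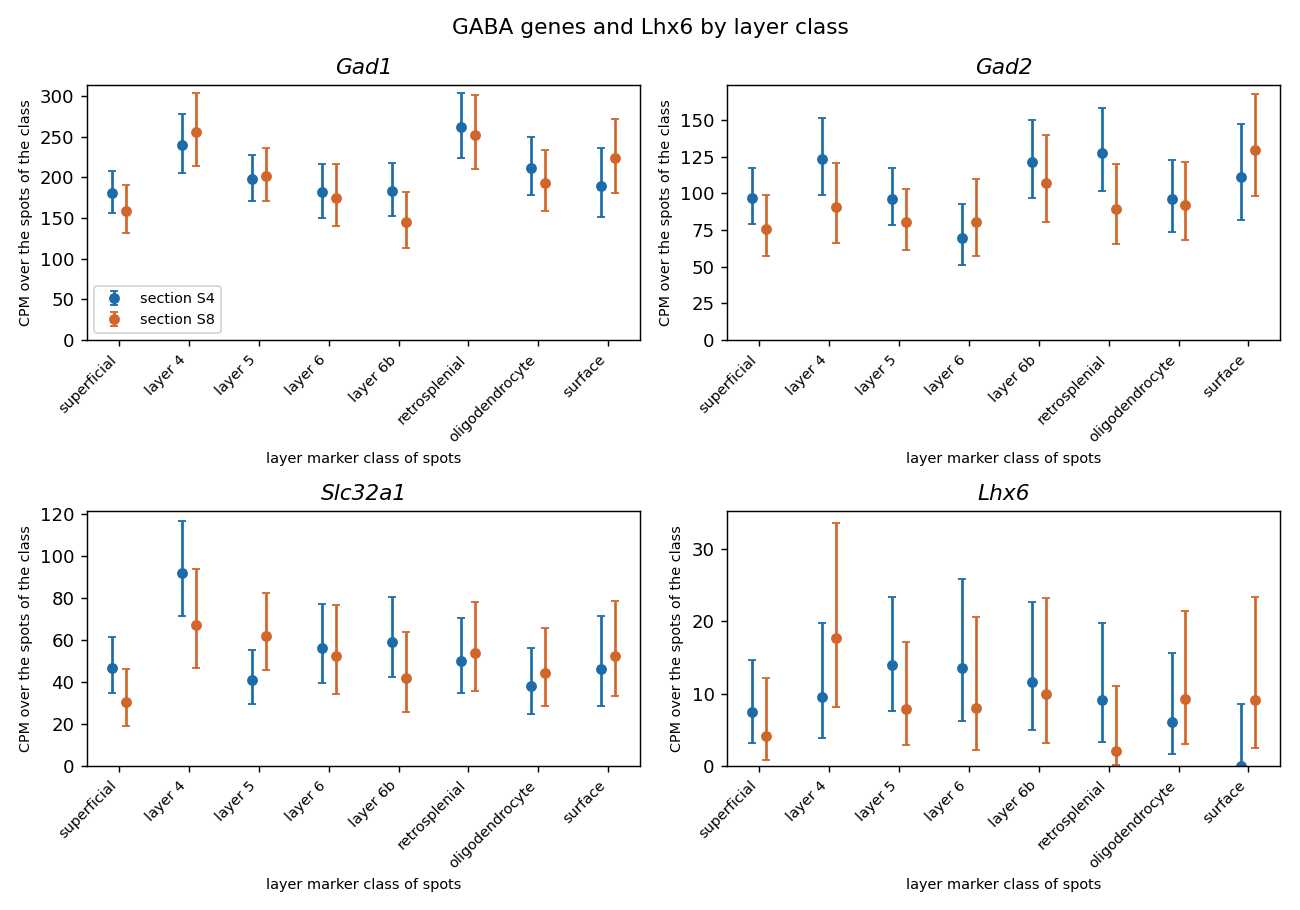
Level of Gad1, Gad2, Slc32a1 and Lhx6 in CPM (vertical axes, from 0) in the 8 classes of spots (horizontal axes), for section S4 (blue) and S8 (orange). Points are sums over the spots of a class and bars are exact 95% Poisson intervals. Gad1 is highest in the retrosplenial class and layer 4 in both sections, and Slc32a1 in layer 4.

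Counts were summed per class and section, and each class was tested against the mean of the other 7 with edgeR's quasi-likelihood test, with the section as a term. The p-values measure only the spread between the sums of these 2 sections. Calls needed both a p adjusted by Benjamini-Hochberg of under 0.05 and a log2 fold change of 1 or more in size. Of the 9790 genes tested, this rule called 1.87% in the superficial class, 0.919% in layer 4, 0.286% in layer 5, 0.582% in layer 6, 0.409% in layer 6b, 0.47% in the retrosplenial class, 1.39% in the oligodendrocyte class and 1.48% in the surface class. Gad1, Gad2 and Slc32a1 passed the filter on low counts, and 0 of their 24 tests were called by edgeR. At an unadjusted p under 0.05, edgeR had 8 of the 24, against 13.2% of all tests over the 8 classes. DESeq2 gave an adjusted p for 22 of the 24 and called 0. Lhx6 did not pass the filter. Tested without it, its edgeR adjusted p ran from 0.759 in the surface class to 1.00 in 3 classes.

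By adjusted p alone, without a minimum fold, 2 of the 24 tests passed. The shares of all genes passing that rule were 8.64% in the superficial class, 3.62% in layer 4, 1.1% in layer 5, 1.77% in layer 6, 1.65% in layer 6b, 2.29% in the retrosplenial class, 3.58% in the oligodendrocyte class and 4.07% in the surface class. Gad1 rose in the retrosplenial class, by 0.43 on the log2 scale with an SE of 0.11 (edgeR adjusted p = 0.0103). Slc32a1 rose in layer 4, by 0.74 on the log2 scale with an SE of 0.18 (edgeR adjusted p = 0.00355). Both were higher in 2 of 2 sections, by 0.41 in each for Gad1, and by 0.95 in S4 and 0.51 in S8 for Slc32a1. Both changes were lost with DESeq2, at adjusted p of 0.0970 and 0.332, and in edgeR without the section term, at 0.204 and 0.0794.

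Several other differences lay near the threshold without passing it. The log2 fold change of Gad1 was 0.32 in layer 4 (edgeR adjusted p = 0.0677) and -0.30 in the superficial class (edgeR adjusted p = 0.0529). With only spots scoring at least 1.5 these 2 passed, at edgeR adjusted p of 0.0365 and 0.0377. Gad2 had -0.49 in layer 6 (edgeR adjusted p = 0.110) and 0.38 in the surface class (0.203). Slc32a1 had -0.44 in the superficial class (edgeR adjusted p = 0.141). These 3 values differed between the sections: -0.66 in S4 alone and -0.22 in S8 alone for Gad2 in layer 6, 0.12 and 0.57 for Gad2 in the surface class, and -0.17 and -0.79 for Slc32a1 in the superficial class. A missed threshold with 2 sections does not show that classes were alike, and the SEs of 0.10 to 0.24 leave room for changes of that size.

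**Figure D2:**
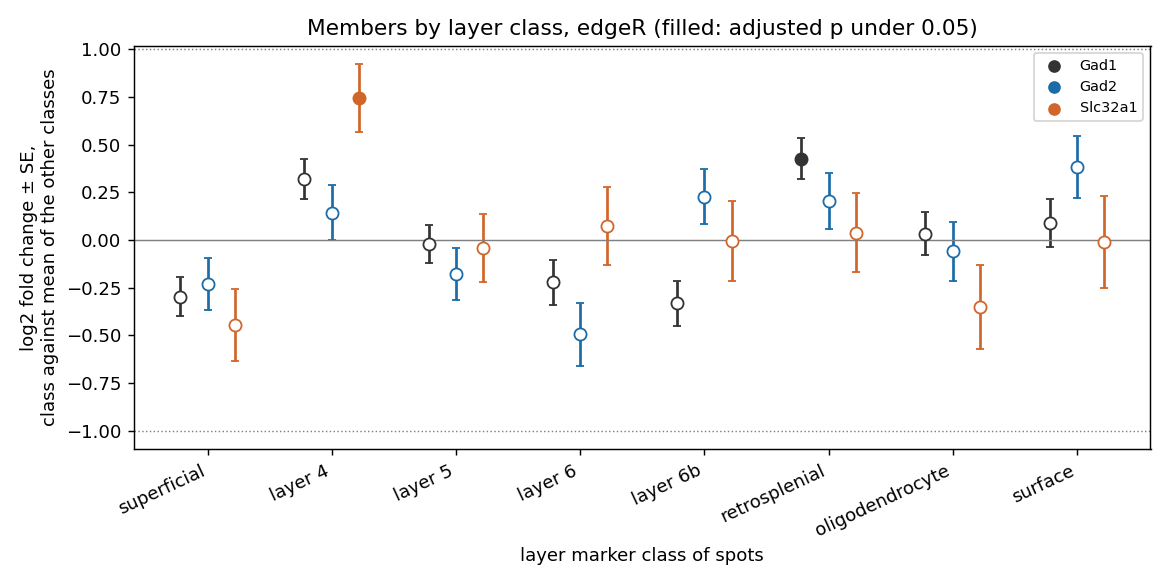
Log2 fold change of each class of spots against the mean of the other classes (vertical axis) for Gad1 (black), Gad2 (blue) and Slc32a1 (orange), with bars of 1 SE from edgeR's quasi-likelihood fit. Filled points passed an adjusted p of 0.05: Gad1 in the retrosplenial class and Slc32a1 in layer 4. No point reaches the dotted lines at 1 and -1.

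In spots, fewer interneurons and less RNA per interneuron cannot be told apart. Slc17a7, the excitatory transporter, fell in the retrosplenial class, at 568 CPM in S4 and 621 CPM in S8 (log2 fold change -0.41 with an SE of 0.09; edgeR adjusted p = 0.00107). This fall was lost without the section term (edgeR adjusted p = 0.339). Its part in the Gad1 result there was not tested. Slc17a6, another vesicular glutamate transporter, was among the markers that chose the retrosplenial spots. The fall of Slc17a7 there is therefore not read as less excitatory RNA. In layer 4 Slc17a7 stood at 647 and 751 CPM and did not pass the test.

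The 2 decarboxylase genes were also set against each other within each class. Of the counts of Gad1 and Gad2 together, Gad2 gave 39.8% in layer 6b in S4 (exact 95% interval 33.2% to 46.8%) and 42.5% in S8 (33.8% to 51.6%). Layer 6b had the largest Gad2 share of the 8 classes in both sections. In layer 4 the share was 34.0% (28.3% to 40.0%) and 26.1% (19.8% to 33.3%), and in the retrosplenial class 32.8% (27.1% to 38.9%) and 26.2% (19.8% to 33.4%). The intervals of layer 6b overlapped those of layer 4 in S4 and did not in S8, and this difference was seen in these values and has no test.

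Genes that mark interneuron classes were tested in the same fit. Pvalb, a calcium-binding protein of fast-spiking basket cells, rose in layer 4 (311 CPM in S4 and 191 CPM in S8, log2 fold change 0.86), the retrosplenial class (292 and 195 CPM, 0.84) and layer 5 (221 and 190 CPM, 0.52). It fell in the surface class (-0.83), layer 6b (-0.71), the superficial class (-0.50) and layer 6 (-0.49). The edgeR adjusted p of these 7 changes ran from 1.10e-09 in layer 4 to 0.0338 in layer 6. DESeq2 kept 4 of the 7 changes of Pvalb, losing those in layer 5 (adjusted p = 0.139), layer 6 (0.700) and the superficial class (0.129). Without the section term edgeR kept 1 of 7, that in layer 4, with an adjusted p of 0.0537 in the retrosplenial class. The classes where Pvalb was highest, layer 4 and retrosplenial, were also those where Gad1 was highest. Pvalb does not mark interneurons alone here, since 139 of the 756 dissociated cells with Slc17a7 held it too. In 1 cluster of these cells, led by Thsd7a, Pygm and Eps8l2, it was in 72 of 121 cells. Eps8l2 was also among the markers that chose the retrosplenial spots. The part of excitatory cells in the Pvalb changes was not tested.

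Sst, the peptide of dendrite-targeting interneurons, was concentrated in layer 6b, at 689 CPM in S4 and 906 CPM in S8 (log2 fold change 1.35 with an SE of 0.08; edgeR adjusted p = 2.67e-30). In the other classes Sst lay between 197 and 444 CPM. It fell in the superficial class (-0.67), the surface class (-0.41) and layer 4 (-0.36), with edgeR adjusted p of at most 0.0228. Npy, the peptide neuropeptide Y, also rose in layer 6b, at 300.3 and 274 CPM (0.93; edgeR adjusted p = 2.29e-11), against 120 to 212 CPM elsewhere. Vip, the peptide of interneurons that target other interneurons, rose in the superficial class (153 and 81.5 CPM, 1.10) and layer 4 (114 and 72.9 CPM, 0.72). Vip fell in layer 5 (33.8 and 21.1 CPM, -1.28) and layer 6b (40.4 and 33.8 CPM, -0.82), with edgeR adjusted p over its 4 changes from 6.57e-10 to 0.0274. The changes of Sst in layer 6b and the superficial class, Npy in layer 6b and Vip in the superficial class passed by adjusted p in all 6 alternatives run. Those of Sst in layer 4 and the surface class and of Vip in layers 4 and 6b were lost with DESeq2 (adjusted p from 0.193 to 0.368) and without the section term, and that of Vip in layer 5 without the section term (edgeR adjusted p = 0.0525). Gad1 in layer 6b did not pass, with a log2 fold change of -0.33 (edgeR adjusted p = 0.157), and for Gad2 it was 0.23 (0.611).

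**Figure D3:**
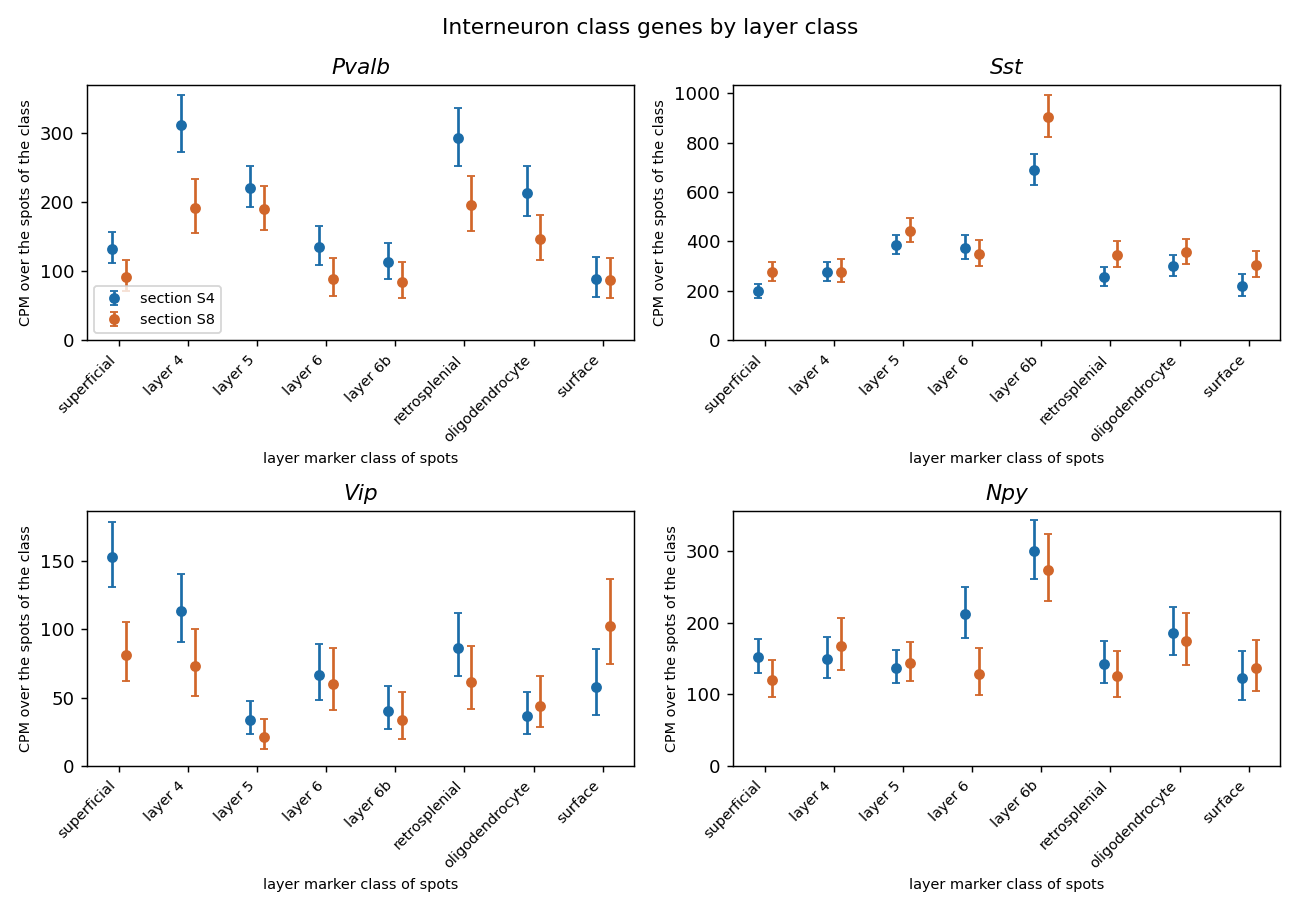
Level of Pvalb, Sst, Vip and Npy in CPM (vertical axes, from 0) in the 8 classes of spots (horizontal axes), for section S4 (blue) and S8 (orange), with exact 95% Poisson intervals. Pvalb is highest in layer 4 and the retrosplenial class, Sst and Npy in layer 6b, and Vip is lowest in layer 5.

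Of the 22 interneuron class genes on the list, 18 were tested over the classes. By adjusted p alone, 8 rose and 3 fell in layer 6b, with a median log2 fold change of 0.21 against 0.01 over all genes. Besides Sst and Npy, the risers there were Cplx3, Calb2, Crhbp, Cort, Nos1 and Tac1. Without the section term Cplx3 alone of these 6 passed, the other 5 having edgeR adjusted p of 0.185 to 0.392, and DESeq2 gave none of the 6 an adjusted p. At a layer score of at least 0.5, Cort, Nos1 and Tac1 did not pass (edgeR adjusted p from 0.0568 to 0.141). Cplx3, a complexin, is also known from subplate neurons, which are excitatory. In the superficial class 4 rose and 4 fell, in layer 4 2 and 3, in layer 5 1 and 2, in layer 6 1 and 2, in the retrosplenial class 2 and 1, in the oligodendrocyte class 1 and 1, and in the surface class 2 and 2.

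Of the 8 other GABA pathway genes, 7 were tested, and Slc6a13 was not. In the superficial class 0 rose and 3 fell by adjusted p, with a median log2 fold change of -0.36 against 0.00 over all genes. The 3 were Slc38a1, a glutamine transporter of neurons (-0.60), Slc6a17, a vesicular amino acid transporter (-0.39), and Abat, the transaminase that breaks GABA down (-0.38), with edgeR adjusted p of 0.00227, 0.00576 and 0.0273. All 3 were lost with DESeq2 (adjusted p from 0.157 to 0.456) and without the section term (edgeR adjusted p from 0.0554 to 0.241). In the other 7 classes 0 of the 7 passed.

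Of the 14 interneuron transcription factors, 6 were tested, and Satb1 gave all 6 changes that passed. Satb1, a chromatin organizer that acts in Sst and Pvalb interneurons, rose in the retrosplenial class (log2 fold change 0.72), the oligodendrocyte class (0.60), layer 4 (0.46) and layer 5 (0.46). It fell in the surface class (-1.03) and the superficial class (-0.69). Its edgeR adjusted p ran from 0.000140 to 0.0418, and DESeq2 kept 2 of the 6, those in the retrosplenial and surface classes. Satb1 was also common in the excitatory cells, where 623 of 765 cells held a count. The list genes were chosen with earlier results of these data known, and their directions are not independent of those.

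To see which genes share the pattern of the GABA genes over spots, the summed level of Gad1, Gad2 and Slc32a1 was set against each of 9691 genes. Among the 5 genes with the highest mean Pearson r over the sections were Pvalb (0.257 in S4 and 0.240 in S8), Npy (0.253 and 0.192), Atp1b1 (0.144 and 0.222), a subunit of the sodium pump, and Kcnc2 (0.221 and 0.141), a potassium channel of fast-spiking cells. Sst ranked 6 (0.219 and 0.141). Vip ranked 605 with a mean r of 0.048. Slc17a7 ranked 9675, with -0.089 in S4 and -0.109 in S8. The median over all genes was 0.004 and the 99th percentile 0.079. All r are low, were taken over 1022 and 951 spots, and rest on counts that share library and depth.

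The decarboxylases were also followed in spots rich in an interneuron gene. In the tenth of spots with most Pvalb (102 in S4, 95 in S8), Gad1 stood at 397 and 366 CPM in the 2 sections, while the other spots had 175 and 167 CPM. Gad2 stood there at 134 and 116 CPM, against 104 and 88.8 CPM. In the tenth with most Sst, Gad2 stood at 204 and 153 CPM against 96.8 and 84.7 CPM, and Gad1 at 272 and 219 CPM against 190 and 185 CPM. Pvalb-rich spots thus held more Gad1, and Sst-rich spots more Gad2, in proportion to the other spots, in both sections.

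Npy-rich spots were high in both decarboxylases, with Gad1 at 325 and 267 CPM against 185 and 180 CPM and Gad2 at 217 and 170 CPM against 95.3 and 83.2 CPM. In Vip-rich spots Gad1 stood at 212 and 196 CPM against 197 and 188 CPM, and Gad2 at 90.7 and 104 CPM against 109 and 90.5 CPM. Of the 4 genes, Vip went with the least difference. Slc32a1 was higher in the Pvalb-rich (81.4 and 77.9 CPM), Sst-rich (79.9 and 68.8 CPM) and Npy-rich spots (82.3 and 61.1 CPM) than in the others (47.6 to 50.2 CPM). Median totals in the rich spots were 6229 to 8808 and in the others 6658 to 8263. These values compare spots within a section and are given with no test.

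**Figure D4:**
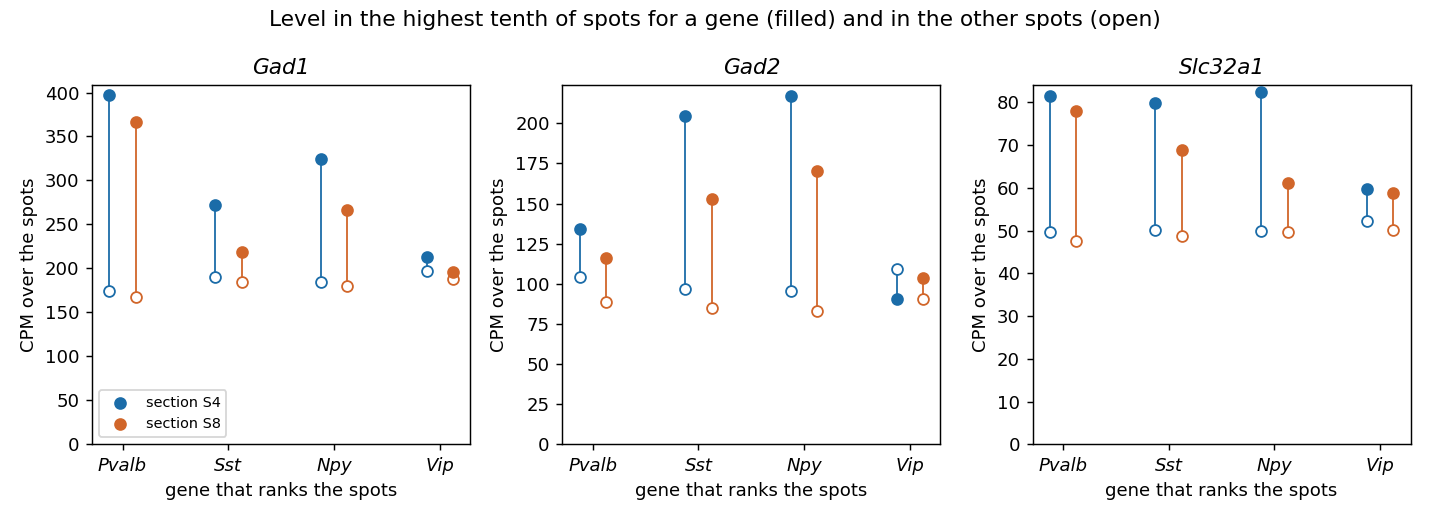
Level of Gad1, Gad2 and Slc32a1 in CPM (vertical axes, from 0) in the tenth of spots with most Pvalb, Sst, Npy or Vip (filled) and in the other spots (open), for section S4 (blue) and S8 (orange). The gap is widest for Gad1 with Pvalb and for Gad2 with Sst and Npy, and narrow with Vip.

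Among dissociated cells, the counts were followed in those that carry Slc17a7. Of the 765 dissociated cells, 756 had a count of Slc17a7. Among these, Gad1 was present in 46 (6.08%, exact 95% interval 4.49% to 8.03%) and Gad2 in 13 (1.72%, 0.919% to 2.92%). Both were present in 1 cell, and either in 58 (7.67%). The 9 cells without Slc17a7 were shallow, with a median total of 33235 against 139670 counts, and 0 of them held Gad1 or Gad2. No cell in the table therefore lacked Slc17a7 and carried a decarboxylase.

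The levels in these cells were close to the lowest that can be counted. Gad1 had 47 counts in all, 0.406 CPM, and Gad2 had 15, 0.129 CPM. Of the 46 cells with Gad1, 45 held exactly 1 count and 1 held 2. Of the 13 with Gad2, 12 held 1 count and 1 held 3. Among 1000 other genes found in 36 to 56 cells, a median of 26.8% of the positive cells held a single count, and 13 genes (1.30%) reached the share of Gad1. For Gad2 the share was 92.3%, which 17.6% of 1239 genes found in 10 to 16 cells reached. Gfap, an astrocyte gene, was held as single counts in all its 11 cells. The other astrocyte genes of the list were not, with up to 22 counts in 1 cell for Aqp4, 41 for Gja1, 89 for Aldh1l1 and 106 for Slc1a3. Pvalb reached 411 counts in 1 cell.

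Cells with Gad1 were set beside the other cells on a few further measures. Slc17a7 stood at 127 CPM in them and 122 CPM in cells without Gad1. Sst was found in 4 of the 46 (8.70%) and in 9.15% of the others. The median total was 200433 against 137115 counts, and in animal 3 alone 204084 against 183280. Of the 13 cells with Gad2, 4 had Sst (30.8% against 8.75% of cells without Gad2), and 2 of these came from sample 1, described next. Without sample 1, Sst was in 2 of 10 cells with Gad2.

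The samples differed. Gad1 was in 0 of 60, 0 of 58 and 0 of 30 cells in samples 1 to 3 (animal 1). It was in 3 of 75, 0 of 75, 1 of 69 and 6 of 80 cells in samples 11 to 14 (animal 2). In samples 15 to 18 (animal 3) it was in 10 of 78, 4 of 78, 16 of 78 and 6 of 75 cells. All samples of animal 3 lay above all of animal 1, while animals 2 and 3 overlapped. By animal the share was 0% (0 of 148 cells, which allows up to 2.03%), 3.34% (1.62% to 6.06%) and 11.7% (8.29% to 15.8%).

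Depth rose in the same order as the Gad1 share, with median totals of 66781, 134177 and 185995 counts. Thinned to 54512 counts per cell, with 71 shallower cells left out, the shares were 0%, 1.10% and 3.56%. Thinning could only leave animal 1 at 0, with 97 of its cells, so it bears on animals 2 and 3 alone. The share over all cells was then 2.04%. Without animal 3 the share of all cells was 2.24%, and without sample 17, which alone held 16 of the 46 cells, it was 4.42%. Each sample came from 1 animal, so the animal and the preparation of its samples cannot be told apart.

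Gad2 was not spread over animals in that way. It was in 3 of 148 cells of animal 1, 4 of 299 of animal 2 and 6 of 309 of animal 3, a mean of 1.77% ± 0.376 (SD, n = 3 animals). The 3 cells of animal 1 all came from sample 1 and were shallow, with at most 42176 counts, so they were left out by thinning. Sample 1 stood apart for Sst: 38 of its 60 cells held a count (63.3%), against 31 of 696 in the other samples (4.45%). Over all 70 cells with Sst its highest count was 3. No cell of sample 1 held Gad1.

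**Figure D5:**
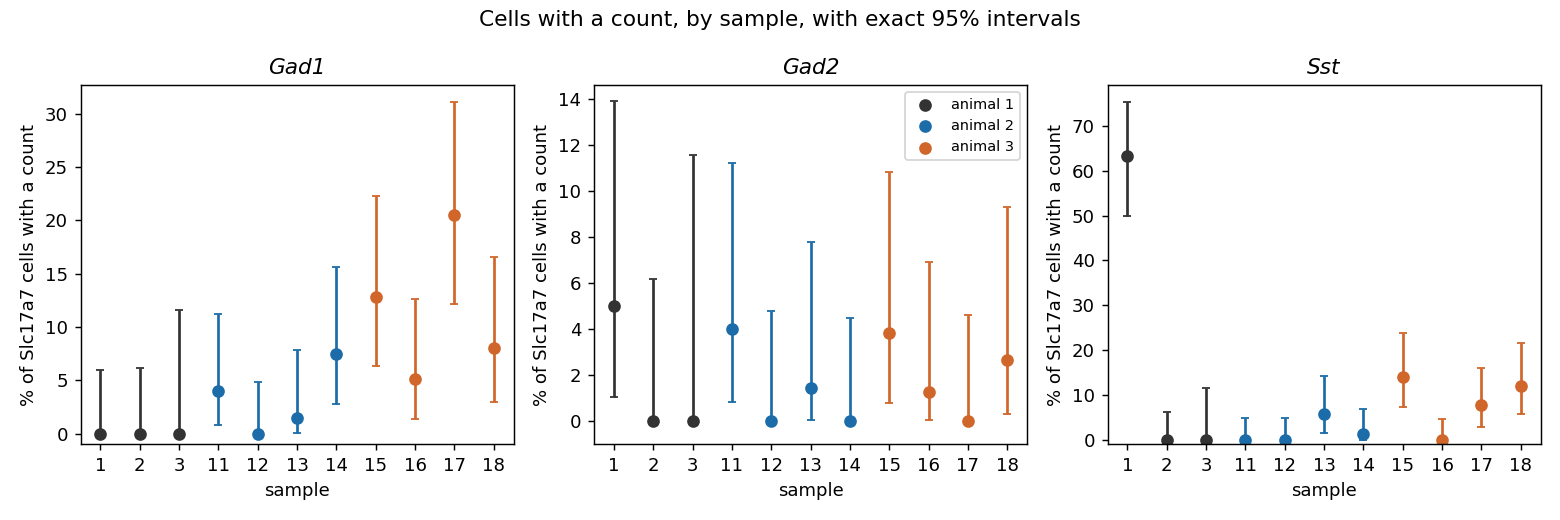
Share of the Slc17a7 cells with a count of Gad1, Gad2 or Sst (vertical axes, %) in each of the 11 samples (horizontal axes), with exact 95% binomial intervals and animals 1 to 3 in black, blue and orange. Gad1 is at 0 in the 3 samples of animal 1 and reaches 20.5% in sample 17, and Sst reaches 63.3% in sample 1.

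Along the anterior to posterior axis, Gad1 was found in 17 of 255 anterior, 9 of 213 medium and 20 of 288 posterior cells. Gad2 was found in 3, 9 and 1 of these cells. Over the 3 animals the Gad2 share was 0.952% ± 0.952 at the anterior level, 5.32% ± 3.66 at the medium level and 0.300% ± 0.520 at the posterior level (SD, n = 3). The medium share was higher than the anterior share in 3 of 3 animals (two-sided exact permutation test paired by animal, p = 0.25, the smallest that 3 animals allow; 0.667 adjusted over 4 comparisons). This design cannot reach 0.05. Without sample 1 it was higher in 2 of 3 animals (paired exact permutation p = 0.50). Gad2 at the posterior level gave a paired exact permutation p of 0.50, and Gad1 gave 1.00 at the posterior and 0.50 at the medium level.

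In sums per animal and level, with the animal as a term, edgeR's quasi-likelihood test called 0.103% of 13624 genes between posterior and anterior and 0.00734% between medium and anterior. Neither Gad1 nor Gad2 passed the filter on low counts in that fit. Tested without the filter, their edgeR adjusted p were 0.959 or more. Of the other lists, 8 GABA pathway, 3 transcription factor and 11 interneuron class genes were tested, and 0 passed in either comparison. At an unadjusted p under 0.05, edgeR had 1, 1 and 3 of them between posterior and anterior, against 5.73% of all genes. Between medium and anterior it had 0, 0 and 2, against 4.16% of all genes.

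The cells were also clustered without the members, to see whether the counts gathered in any class of cells. Of 12 clusters, 10 held a cell with Gad1, and the share in the 6 clusters of over 60 cells ran from 1.41% to 10.3%. Cells with Gad1 were thus spread over clusters led by Calb1 and Penk (14 of 199), Thsd7a and Pygm (8 of 121), C1ql2 and Nrtn (5 of 85), Oprk1 and Osr1 (4 of 73), Rprm and Syt6 (1 of 71) and Ptprm and Tmem215 (7 of 68). The highest level in any of the 12 clusters was 1.09 CPM for Gad1 and 1.66 CPM for Gad2. Animal 3 gave 36 of the 46 cells with Gad1. It gave 13 of the 14 in the Calb1 cluster, 5 of the 8 in the Thsd7a cluster and all 7 in the Ptprm cluster. Clusters differed in their mix of animals and in depth, so their shares are not read as differences between cell classes. The clusters were drawn from these same cells, so the values are a description.

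A small cluster of 11 cells was led by Kcnip1, Pvalb, Nxph1, Amigo2 and Ly6g6e, the first 3 of them known from interneurons. Other interneuron genes were mixed there: Kcnc2 and Reln were in 0 cells, Sst and Npy in 1 each and Satb1 in all 11. Pvalb stood there at 517 CPM, with a count in 7 of 11 cells. Gad1 was in 0 of the 11 cells, which allows a share of up to 27.3%, and Gad2 was in 2, with 1 count each. Slc17a7 stood at 116 CPM in this cluster, with a count in 10 of 11 cells. Pvalb was also held by 72 of 121 cells of the cluster led by Thsd7a, at 169 CPM, where Gad1 stood at 0.348 CPM.

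Other genes of GABA cells differed in how far they were found in the cells. Of the 14 interneuron transcription factors, 4 had a row in the cell table, while Dlx1, Dlx2, Dlx5, Dlx6, Dlx6os1, Nkx2-1, Sox6, Prox1 and Sp8 were among those without one. Of the 22 class genes, 12 had a row, and Vip was among the 10 without one. Sst stood at 0.860 CPM in the cells and at 350 and 415 CPM in the sections. Other class genes with a row were plentiful there: Cck stood at 2377 CPM (1171 and 946 CPM in the sections), Lamp5 at 859 CPM (169 and 180 CPM), Pvalb at 56.5 CPM (173 and 121 CPM), Cnr1 at 33.7 CPM (132 and 89.8 CPM) and Cplx3 at 22.7 CPM (21.2 and 22.4 CPM). The factor Satb1 stood at 149 CPM (101 and 98.9 CPM).

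Other genes of GABA handling were plentiful in the same cells. Abat was in 380 of 765 cells at 48.6 CPM, against 139 and 125 CPM in the sections. Slc38a1 stood at 150 CPM against 80.4 and 95.6 CPM, Gphn, the scaffold of inhibitory synapses, at 65.7 CPM against 54.5 and 51.0 CPM, and Aldh5a1, which oxidizes the product of Abat, at 21.1 CPM against 49.1 and 51.5 CPM. Gad1, at 0.404 CPM over all 765 cells, stood at 198 and 188 CPM in the sections. The assays differ in chemistry, depth and reference, so these levels are set side by side and not tested.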

How the data were processed

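The deposited values of both tables are raw counts, whole numbers with unequal totals, as read from the values, and in 1973 of 1973 spots the summed counts matched the authors' own total. Per the submitters' processing notes, the builds NCBIM37 and mm10 and the tools Seurat and Space Ranger were used, with no role given. The aligner, the annotation, strand use and whether cell counts are reads or molecules are not given in the sources used here. No coordinates or sequences are printed. Reads of overlapping genes can be shared. Whether S4 is labelled section 1 or 2 was not settled and enters no result.

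The members and lists were chosen with earlier results of these data known. Named genes were the 4 members, genes of the lists, and the 5 genes most like the summed GABA genes over spots, skipping predicted, ribosomal and mitochondrial genes; some list genes are not reported here. Older gene names came from the RefSeq gene table. A layer score was the mean over markers of log2(counts per 10000 + 1), scaled within the section. Sums per class and section (16), or per animal and level (9), were tested on all genes with edgeR 4.0.16 (R 4.3.3), using filterByExpr, TMM, glmQLFit, glmQLFTest and Benjamini-Hochberg adjustment, tested on simulated data first, with DESeq2 1.42.0 as an alternative. The levels came from the same animals, so the animal was a block by design. The SE is the log2 fold change over the square root of F. Clusters used scanpy 1.11.5 in Python 3.11.15 (2000 variable genes without the members, 30 components, 15 neighbours, Leiden resolution 1, seed 1). No doublet caller was run, since column names give each cell a well. Intervals are exact binomial or Poisson at 95% (scipy 1.17.1), also for a count of 0.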

Additional observations from a re-analysis of the deposited data

How the results depend on the processing

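The 24 tests of Gad1, Gad2 and Slc32a1 over the layer classes gave 0 called changes with RLE size factors, no filter, layer scores of at least 0.5 or 1.5 and no section term, and DESeq2 called 0 of the 22 to which it gave an adjusted p. By adjusted p alone, the 2 that passed became 0 with DESeq2 and without the section term and 4 at a score of at least 1.5. All genes called over the 8 classes numbered 725, against 287 with DESeq2 and 405 without the section term. Signs turned only where no test passed in the fit reported. In 1 section alone, with no test, they turned for 10 of the 24, as for Slc32a1 in layer 5 (-0.39 in S4, 0.38 in S8). At a score of at least 1.5 this held for Gad1 in the oligodendrocyte class (-0.13), Gad2 in layer 5 (0.032) and Slc32a1 in layer 5 (0.0107), layer 6 (-0.0628), layer 6b (0.0742) and the surface class (0.22). At 0.5 it held for Gad1 in the surface class (-0.0334) and Slc32a1 in layer 6 (-0.0864) and the oligodendrocyte class (0.20), and without the filter for Gad1 in layer 5 (0.00739) and Slc32a1 in layer 6b (0.00132). The cause was not tested.

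Between posterior and anterior cells, 14 genes were called with the animal as a block and 1 without that block. DESeq2 called 104, sums per sample called 45, and leaving out 1 animal gave 1 to 8. Between medium and anterior, 1 was called with and without the block, 16 with DESeq2, 0 in sums per sample and 1 to 2 when 1 animal was left out. Members were tested only without the filter, with DESeq2 (no adjusted p for medium) and, for Gad1, without animal 1, and 0 were called there.

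With at least 2 counts required, Gad1 was in 0.132% of Slc17a7 cells and Gad2 in 0.132%. At equal depth they were in 2.04% and 0.514%. Leaving out 1 animal or sample 1 or 17 (the samples chosen after seeing the data) gave 2.24% to 7.88% for Gad1 and 1.44% to 1.97% for Gad2. With at least 2 counts, the share of spots in S4 and S8 was 40.9% and 33.1% for Gad1, 22.99% and 13.7% for Gad2, 9.30% and 5.78% for Slc32a1 and 0.391% and 0.210% for Lhx6. At equal depth it was 56.2% and 53.5%, 37.5% and 33.2%, 22.0% and 22.1%, and 4.85% and 4.09%.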
